A study of Mus musculus with 30 samples.

Results

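A set of genes listed for the epithelium covering the ovary was followed through fetal ovary development. It holds the simple-epithelial keratins Krt7, Krt8, Krt18 and Krt19, the uroplakin Upk3b, mesothelin (Msln) and galectin-7 (Lgals7). Whether these genes owed their signals to that epithelium was not tested. They were taken by the platform's gene symbol, which gave all 7 genes of 15964 named genes and 10 probe sets of 36701, 9 of them on array A and 1 on array B. RNA of pooled embryonic ovaries of mice given as BL/6-129 in the labels was collected at 11.5, 12.5, 14.5, 16.5 and 18.5 days post coitum (dpc), with 2 numbered samples per age, and each sample was put on 3 Affymetrix array types called A, B and C here. All 5 groups share the mouse background and TRIzol extraction, no group carries a treatment or a mutation, and sexing of the gonads by Sry PCR is recorded for the samples of 11.5 and 12.5 dpc. The number of ovaries in a pool is not given, nor whether replicates 1 and 2 of an age were separate pools. The p-values therefore measure only the spread between these RNA samples, and that spread may be technical. Because whole ovaries were used, fewer cells of a type and less RNA per cell cannot be told apart in any value.

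Keratins are the intermediate filaments of epithelial cells, and a filament is built from a type II keratin paired with a type I keratin. Krt8 (type II) with Krt18 (type I) is the basic pair of simple epithelia, to which Krt7 (type II) and Krt19 (type I) are added in glandular, ductal and surface linings. The ovarian surface epithelium is a simple epithelium derived from the coelomic lining of the genital ridge, is related to the mesothelium, and has been described as a source of some granulosa cells.

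The values are array signals, which the authors scaled to a mean of 125 on each array, so they compare one probe set across samples and not 1 gene with another. All 10 arrays of a type entered 1 limma fit on log2(signal + 16), and a probe set was called where its p, adjusted by Benjamini-Hochberg over the 24825 probe sets tested, was under 0.05. Fold changes are on that log2(signal + 16) scale. The trimmed mean was 125.02 to 125.08 on every array, the median signal was 47.0 to 81.7, and 48.8 to 63.0% of the probe sets of an array reached a signal of 50. Testing needed a signal of 50 on at least 2 of 10 arrays: 7 of the 10 member probe sets met this, and a second Krt18 set, a second Krt7 set and the only Msln set did not.

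Most member calls between neighbouring ages fell at 14.5 against 12.5 dpc, when Krt8, Krt18, Krt7, Krt19 and Upk3b rose by 2.00-fold to 3.70-fold. Krt19 went on to a higher signal at 18.5 than at 14.5 dpc, and Lgals7 rose earlier, at 12.5 against 11.5 dpc. Every call among the members was in the higher direction. Msln signals were near the bottom of the scale at every age.

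**Figure D1:**
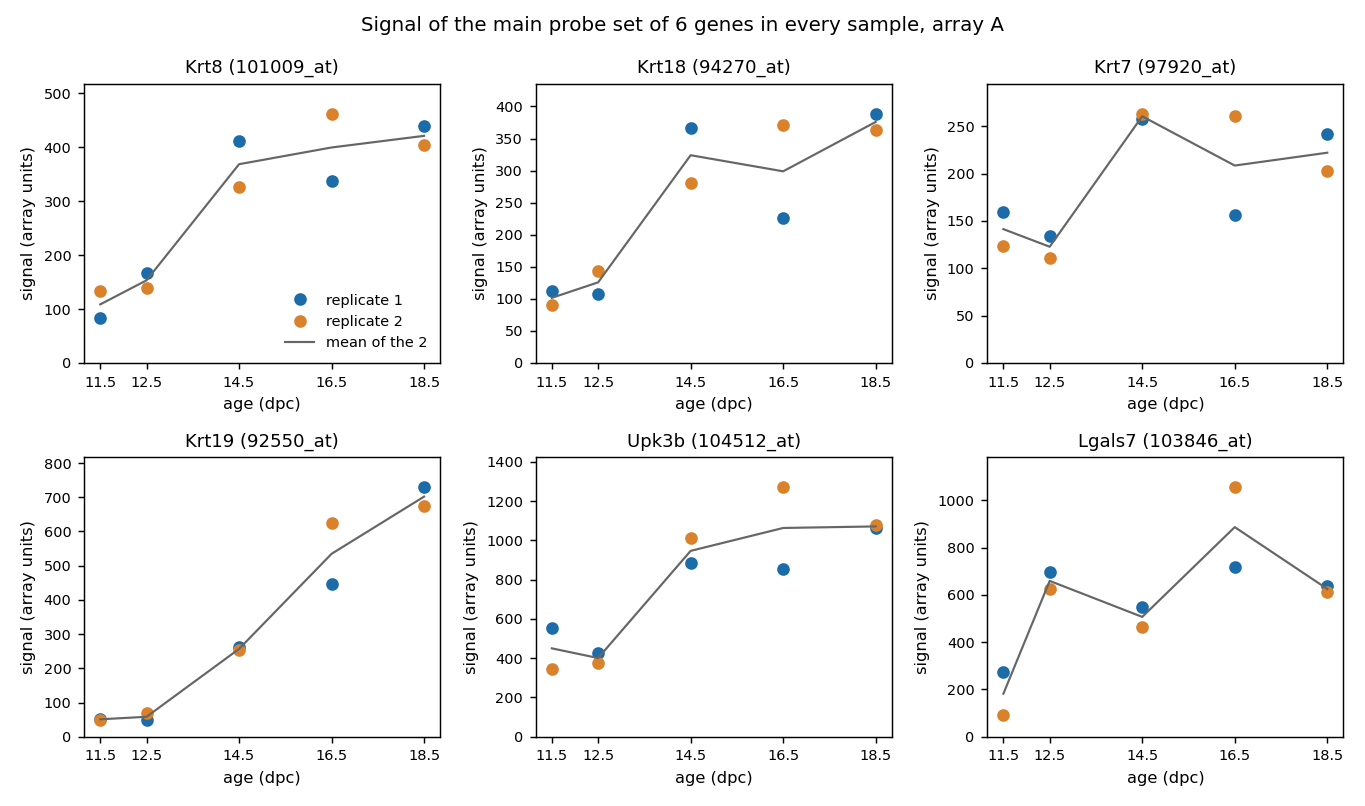
Signal (array units, linear axis from 0) against age in dpc for the main probe set of 6 genes on array A, with blue points for replicate 1, orange points for replicate 2 and a line through the mean of the 2. Krt8, Krt18, Krt19 and Upk3b have all samples of 14.5 to 18.5 dpc above those of 11.5 and 12.5 dpc, Krt7 overlaps only through 1 sample of 16.5 dpc, and Lgals7 is lowest at 11.5 dpc.

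Krt8, the type II keratin of simple epithelia, had signals of 83.2 and 134.0 at 11.5 dpc, 167.3 and 139.0 at 12.5 dpc, 410.9 and 325.8 at 14.5 dpc, 336.5 and 462.2 at 16.5 dpc, then 438.4 and 403.4 at 18.5 dpc. The 6 samples from 14.5 dpc on lay above all 4 earlier ones. The age means were 109 ± 35.9, 153 ± 20.0, 368 ± 60.2, 399 ± 88.9 and 421 ± 24.7 in order of age (SD, n = 2 each). At 14.5 against 12.5 dpc Krt8 rose 2.27-fold (log2 change 1.18 ± 0.22, SE; limma adjusted p = 0.02). This was the only step between neighbouring ages that passed the test, with a log2 change of 0.47 at 12.5 against 11.5 dpc (adjusted p = 0.42). Between 18.5 and 14.5 dpc the log2 difference was 0.19 with a 95% interval of -0.29 to 0.68, so a further change of that size in either direction cannot be told from none. The difference at 18.5 against 11.5 dpc was 3.58-fold (adjusted p = 0.00025).

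Krt18, the type I partner of Krt8, had signals of 112.3 and 90.9 at 11.5 dpc, 107.2 and 144.2 at 12.5 dpc, 366.9 and 281.0 at 14.5 dpc, 226.7 and 371.0 at 16.5 dpc, then 388.9 and 362.8 at 18.5 dpc. Here too every sample from 14.5 dpc on exceeded every earlier one, the lowest of them being replicate 1 of 16.5 dpc. Krt18 rose 2.40-fold at 14.5 against 12.5 dpc (log2 change 1.26 ± 0.23, SE; limma adjusted p = 0.017). It was 3.34-fold higher at 18.5 than at 11.5 dpc (adjusted p = 5e-04), and the log2 difference between 18.5 and 14.5 dpc was 0.22 (95% interval -0.29 to 0.72). The other Krt18 probe set on array A gave signals of 0.5 to 10.1, reached 50 on no array and was not tested. Its correlation with the brighter set was 0.25 over the 10 samples.

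The calls of Krt8 and Krt18 at 14.5 against 12.5 dpc each needed all 4 samples of those ages. Without 1 sample the adjusted p was 0.088 and 0.16 for Krt8 (12.5 dpc replicates 1 and 2 left out), 0.15 and 0.063 (14.5 dpc replicates 1 and 2), and for Krt18 it was 0.19, 0.058, 0.14 and 0.053 in the same order. Their differences at 18.5 against 11.5 dpc were called without any 1 of the 10 samples, with adjusted p up to 0.0048 for Krt8 and 0.0083 for Krt18.

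Krt8 and Krt18 are neighbours on chromosome 15, with 2 gene models and no protein-coding gene between them in RefSeq (GRCm38.p6). Across the 10 samples their log2 values correlated with r = 0.94, as a description of arrays that share sample and scaling. The 250 bases before the annotated start of both genes are printed here, with those of Upk3b and Krt7, because these 4 genes were called at the same step, and with those of Lgals7, because it was called at another. These are all the member promoters at hand, 5 of the 7 genes, from RefSeq. Capitals mark every match, on either strand, to any of 6 motifs. The GATA factor motif was searched as GATAA, the GC box as GGGCGG, and the M-CAT element of TEAD factors as CATTCC. The TATA box was searched as TATAAA, the AP-1 motif as TGANTCA, and that of grainyhead-like factors as AACCNGTT.
Krt8, chr15:102004343-102004592, minus strand: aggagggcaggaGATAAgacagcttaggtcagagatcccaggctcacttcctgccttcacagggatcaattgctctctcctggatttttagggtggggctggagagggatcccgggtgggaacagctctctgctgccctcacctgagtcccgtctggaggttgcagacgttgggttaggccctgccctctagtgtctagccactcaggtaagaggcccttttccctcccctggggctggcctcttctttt
Krt18, chr15:102027966-102028215, plus strand: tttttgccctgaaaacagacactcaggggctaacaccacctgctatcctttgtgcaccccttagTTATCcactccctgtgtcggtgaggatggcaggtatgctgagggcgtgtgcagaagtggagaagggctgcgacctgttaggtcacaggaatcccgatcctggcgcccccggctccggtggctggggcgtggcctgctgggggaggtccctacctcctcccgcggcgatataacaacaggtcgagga
Krt7, chr15:101412153-101412402, plus strand: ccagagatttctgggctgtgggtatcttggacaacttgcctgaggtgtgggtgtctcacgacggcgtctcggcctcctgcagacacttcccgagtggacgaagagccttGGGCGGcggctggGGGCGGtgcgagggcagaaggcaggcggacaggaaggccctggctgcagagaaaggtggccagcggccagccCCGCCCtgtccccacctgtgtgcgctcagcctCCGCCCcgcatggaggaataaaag
Upk3b, chr5:136038246-136038495, plus strand: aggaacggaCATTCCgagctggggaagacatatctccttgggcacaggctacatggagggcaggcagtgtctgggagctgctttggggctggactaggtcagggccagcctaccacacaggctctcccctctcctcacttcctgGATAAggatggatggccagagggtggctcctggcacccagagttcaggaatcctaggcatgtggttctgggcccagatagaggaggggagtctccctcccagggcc
Lgals7, chr7:28864136-28864385, plus strand: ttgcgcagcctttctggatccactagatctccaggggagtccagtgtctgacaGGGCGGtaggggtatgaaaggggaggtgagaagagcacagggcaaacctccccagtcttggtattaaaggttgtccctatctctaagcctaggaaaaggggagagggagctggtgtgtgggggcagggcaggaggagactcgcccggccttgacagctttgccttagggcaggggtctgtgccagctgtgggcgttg

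GATAA was present in the windows of Krt8, Krt18 and Upk3b, 3 of the 5 genes, and not in that of Krt7, and 22.6% of 32851 RefSeq promoter windows of that length hold it. Counting back from the start, it lay at bases -238 to -234 in Krt8, at -186 to -182 in Krt18 on the opposite strand (read as TTATC), and at -106 to -102 in Upk3b. The GC box was found in Krt7, at 4 places, and in Lgals7 (32.7% of all windows), and the M-CAT element in Upk3b (12.6%). The TATA box, the AP-1 motif and the grainyhead-like motif, which 12.4, 6.75 and 1.79% of windows hold, were in none of the 5. These are matches of letters only, and the motifs do not overlap one another in the printed windows.

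Krt7, the second type II keratin of the group, had signals of 159.0 and 123.7 at 11.5 dpc, 134.6 and 110.9 at 12.5 dpc, 257.6 and 263.4 at 14.5 dpc, 156.7 and 260.3 at 16.5 dpc, then 241.5 and 202.6 at 18.5 dpc. Replicate 1 of 16.5 dpc fell within the range of the 11.5 dpc samples, and the other 5 samples from 14.5 dpc on lay above all 4 earlier ones. Krt7 rose 2.00-fold at 14.5 against 12.5 dpc (log2 change 1.00 ± 0.22, SE; limma adjusted p = 0.046). That call sat at the threshold: it was lost without any 1 of the samples of 12.5 dpc (adjusted p = 0.15 and 0.24) or 14.5 dpc (0.17 and 0.18), and also without either sample of 18.5 dpc (0.072 and 0.073). The difference between 18.5 and 11.5 dpc was 1.52-fold and did not pass (adjusted p = 0.094), and that between 18.5 and 14.5 dpc was -0.22 on the log2 scale (95% interval -0.71 to 0.26). A second Krt7 probe set, on array B, gave 0.5 to 10 and was not tested. Its name ends in _i_at, which Affymetrix gave to probe sets with an incomplete set of probes.

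Krt19, the type I keratin that lacks most of a tail domain, had the largest fold change over the course among the 4 keratins. Its main probe set gave 52.3 and 49.6 at 11.5 dpc, 48.4 and 68.2 at 12.5 dpc, 261.1 and 252.2 at 14.5 dpc, 445.3 and 624.1 at 16.5 dpc, then 729.1 and 674.8 at 18.5 dpc. The samples of 11.5 and 12.5 dpc overlapped, and from there each age lay wholly above the one before it. The age means were 51.0 ± 1.9, 58.3 ± 14.0, 257 ± 6.3, 535 ± 126 and 702 ± 38.4 (SD, n = 2 each).

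Krt19 rose 3.70-fold at 14.5 against 12.5 dpc (log2 change 1.89 ± 0.19, SE; limma adjusted p = 0.00035), and this call held without any 1 of the 10 samples, the highest adjusted p being 0.0081. At 18.5 against 14.5 dpc it rose 2.63-fold (log2 change 1.40, 95% interval 0.98 to 1.82; adjusted p = 0.0026), again called with each sample left out in turn (up to 0.042). The step at 16.5 against 14.5 dpc was 1.99-fold with adjusted p = 0.042. It was not called without a sample of 12.5 dpc (0.057 for either), 14.5 dpc (0.14 and 0.17), 16.5 dpc (0.052 and 0.24) or 18.5 dpc (0.075 and 0.074), replicates 1 and 2 in that order. The step at 18.5 against 16.5 dpc did not pass (log2 change 0.40; adjusted p = 0.41). Over the whole course, 18.5 against 11.5 dpc, Krt19 rose 10.7-fold (log2 change 3.42 ± 0.19, SE; adjusted p = 5.6e-07).

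The second Krt19 probe set has the ending _f_at, which marks probes that can match a family of similar sequences. It gave 2.2 and 4.9 at 11.5 dpc, 3.7 and 2.7 at 12.5 dpc, 10.6 and 6.2 at 14.5 dpc, 23.3 and 47.1 at 16.5 dpc, then 89.1 and 82.8 at 18.5 dpc. It entered the test only through the 2 samples of 18.5 dpc, so a difference from that age was built into its selection and no test of it is given. Its order of ages from 12.5 dpc on was that of the main set, and the log2 values of both correlated with r = 0.89 over the 10 samples.

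**Figure D2:**
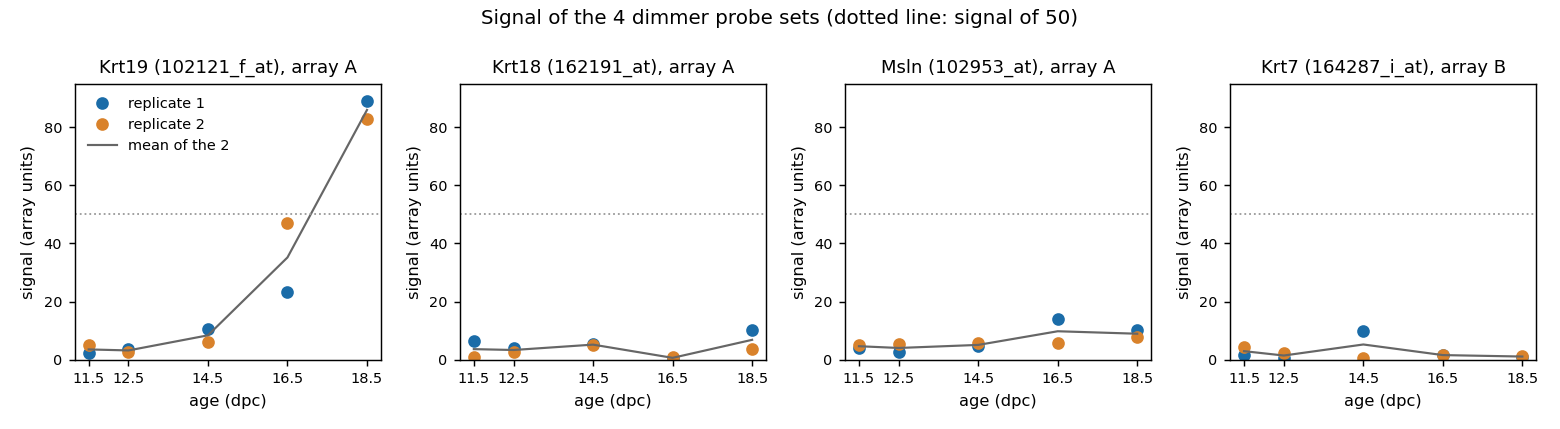
Signal (array units, common linear axis from 0) against age in dpc for the 4 dimmer probe sets, with blue points for replicate 1, orange points for replicate 2, a line through their mean and a dotted line at a signal of 50. Only the Krt19 set passes the dotted line, in both samples of 18.5 dpc (89.1 and 82.8), and no Msln point exceeds 13.9.

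Upk3b, a uroplakin of the urothelial plaque that is also used as a mesothelial marker, had signals of 554.4 and 346.1 at 11.5 dpc, 425.2 and 376.6 at 12.5 dpc, 882.6 and 1011.0 at 14.5 dpc, 856.3 and 1270.6 at 16.5 dpc, then 1064.9 and 1077.9 at 18.5 dpc. The samples of 11.5 and 12.5 dpc overlapped, and all 6 samples from 14.5 dpc on lay above them. Upk3b rose 2.31-fold at 14.5 against 12.5 dpc (log2 change 1.21 ± 0.22, SE; limma adjusted p = 0.018). The call was lost without replicate 1 or 2 of 12.5 dpc (adjusted p = 0.097 and 0.15) and of 14.5 dpc (0.069 and 0.13). At 18.5 against 14.5 dpc the log2 difference was 0.18 (95% interval -0.31 to 0.67). The 2.39-fold difference at 18.5 against 11.5 dpc (adjusted p = 0.0029) was called without any 1 of the samples, with adjusted p up to 0.027.

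Msln, the GPI-anchored mesothelial surface protein mesothelin, was represented by 1 probe set. It gave 4.1 and 5.2 at 11.5 dpc, 2.6 and 5.5 at 12.5 dpc, 4.6 and 5.6 at 14.5 dpc, 13.9 and 5.7 at 16.5 dpc, then 10.1 and 7.8 at 18.5 dpc. No sample reached 50, so no change was tested. A low signal of a single probe set does not show that the transcript was absent.

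Lgals7 encodes galectin-7, a beta-galactoside-binding lectin best known from stratified epithelia. Its signals were 272.6 and 91.7 at 11.5 dpc, 694.6 and 623.4 at 12.5 dpc, 548.0 and 465.5 at 14.5 dpc, 718.0 and 1054.7 at 16.5 dpc, then 638.9 and 611.2 at 18.5 dpc. Both samples of 11.5 dpc lay below all 8 later ones, and they differed from each other more, in relative terms, than the samples of any later age. Lgals7 rose 3.82-fold at 12.5 against 11.5 dpc (log2 change 1.93 ± 0.34, SE; limma adjusted p = 0.044). The size rested on which 11.5 dpc sample was kept: the log2 change was 2.65 without replicate 1 and 1.22 without replicate 2 of that age. It did not pass at 14.5 against 12.5 dpc (log2 change -0.37; adjusted p = 0.69), at 16.5 against 14.5 dpc (0.77; 0.3) or at 18.5 against 14.5 dpc (0.30, 95% interval -0.44 to 1.04).

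The 12.5 dpc call of Lgals7 held only without a sample of 11.5 dpc. The adjusted p was 0.4 and 0.21 without replicate 1 and 2 of 12.5 dpc, 0.056 and 0.055 without those of 14.5 dpc, 0.084 and 0.082 without those of 16.5 dpc, and 0.076 and 0.077 without those of 18.5 dpc. At 18.5 against 11.5 dpc Lgals7 was 3.64-fold higher (adjusted p = 0.0033), and it was called without any 1 sample (up to 0.028), at a log2 change of 2.57 without replicate 1 and 1.15 without replicate 2 of 11.5 dpc, against 1.86 with both.

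**Figure D3:**
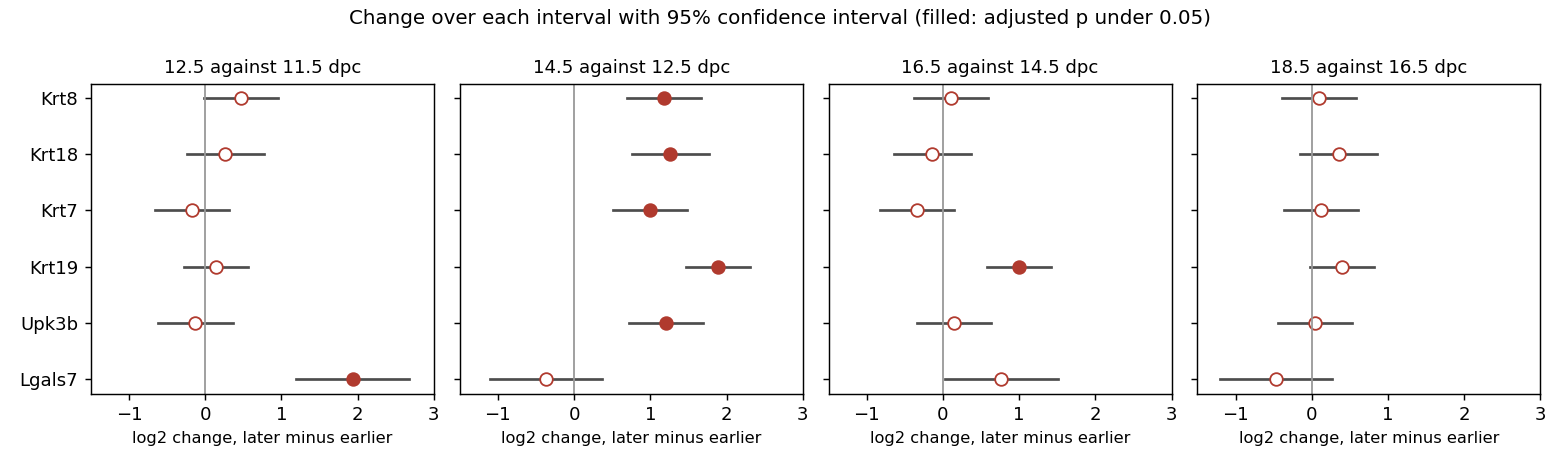
Log2 change in log2(signal + 16), later minus earlier age, over the 4 neighbouring intervals for the main probe set of 6 genes, with the 95% interval of the limma fit as bars and filled points where the adjusted p was under 0.05. The 5 filled points at 14.5 against 12.5 dpc run from 1.00 for Krt7 to 1.89 for Krt19, Lgals7 is filled only at 12.5 against 11.5 dpc, and no point is filled at 18.5 against 16.5 dpc.

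Set beside all tested probe sets, the step at 14.5 against 12.5 dpc held most of the members' calls: 5 of 7 tested member probe sets, from 5 genes, were called higher, where 1.08% of the 24825 tested probe sets were. In either direction 1.66% of all were called. The 7 genes were chosen with earlier results of these data known, so the shares beside their counts are a description and no test of the set. With any 1 of the 4 samples of 12.5 and 14.5 dpc left out, the members' count was 1, the main Krt19 set, when 112 to 221 of all probe sets were called in either direction, against 412 with every sample. With no intensity trend in the fit it was 2, and 271 of all. The median log2 change was 1.18 over the members and -0.01 over all tested probe sets. At 12.5 against 11.5 dpc, 1 of 7 was called higher (Lgals7), against 0.197% of all (0.226% in either direction). At 16.5 against 14.5 dpc it was 1 of 7 (Krt19), against 0.294%. The dimmer Krt19 set is left out of the counts that involve 18.5 dpc, since it was tested only for its signal at that age. At 18.5 against 16.5 dpc limma called none of the 6 others, against 0.431% called higher and 0.624% in either direction. None of the 6 had an unadjusted p under 0.05, beside 3247 of all 24825.

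At 18.5 against 14.5 dpc 1 of 6 was called higher, the main Krt19 set, against 2.34% of all. For 18.5 against 11.5 dpc, 5 of 6 were called higher, all but Krt7, against 7.59% of all (14.5% in either direction), and the median log2 change was 1.79 over the members and 0.02 over all. In the F test over the 5 ages all 6 were called, against 14.4% of all. These counts describe the tested probe sets and not the 7 genes, of which Msln was not tested.

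A contrast of the 6 samples of 14.5 to 18.5 dpc with the 4 of 11.5 and 12.5 dpc was added after these values were seen. It restates the split between early and late samples described for each gene, so it gives no test of it. The log2 changes were 2.75 for the main Krt19 set, 1.51 for Krt8, 1.42 for Krt18, 1.25 for Upk3b, 0.95 for Lgals7 and 0.72 for Krt7.

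Within 16.5 dpc, replicate 2 lay above replicate 1 in each of the 7 tested member probe sets, for example 371.0 and 226.7 for Krt18. The share of all tested probe sets with that order was not counted, so the order cannot be read as particular to the members. The summed signal of 8 stromal markers on array A ran the other way, with 5041.7 in replicate 2 and 7522.0 in replicate 1. On array A, which holds the 7 tested sets, the ratio of the 3' to the 5' Gapdh control probe set was 0.957 in replicate 2 and 0.894 in replicate 1. Averaged over a sample's 3 arrays that ratio was 1.09 and 0.917. The part of the stromal cells and of the Gapdh ratio in the member values was not tested.

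Of the 41 other keratin genes on the arrays, 30 were tested, and at 14.5 against 12.5 dpc 1 was called higher and none lower, beside 1.66% of all probe sets called in either direction, with a median log2 change of 0.02 against 0.01 over all 12589 tested genes. The 1 called gene was Krt13, a type I keratin of stratified mucosal epithelium, with 152.0 and 255.3 at 14.5 dpc and 41.9 and 37.0 at 12.5 dpc (3.85-fold; adjusted p = 0.013, and 0.081 and 0.099 without replicate 1 and 2 of 12.5 dpc and 0.14 without replicate 2 of 14.5 dpc). Its probe set also ends in _f_at. At 18.5 against 11.5 dpc limma called 1 of the 30, beside 14.5% of all probe sets in either direction. This was Krt10, a keratin of differentiating epidermis, which fell 2.16-fold to 37.9 and 33.6, against 106.0 and 86.6 at 11.5 dpc (adjusted p = 0.0053). Krt5 and Krt14, the pair of basal stratified epithelium, had signals of 5.5 to 29.0 and 3.2 to 49.1 and were not tested.

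Of 12 tested genes for other intermediate filaments and their linkers, none was called higher and 1 lower at 14.5 against 12.5 dpc, beside 1.66% of all probe sets in either direction. Lmnb1, the nuclear lamin B1, had 105.2 and 86.0 at 14.5 dpc and 360.4 and 355.0 at 12.5 dpc, so it fell by 1.75 on the log2 scale (adjusted p = 0.00081). At 18.5 against 11.5 dpc none of the 12 was called higher and 2 lower, beside 14.5% of all probe sets in either direction. Lmnb1 and Ina, the neuronal filament protein internexin, were lower at 18.5 than at 11.5 dpc (adjusted p = 0.00026 and 0.0055), and Ina was not called without replicate 1 of 18.5 dpc (0.061).

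Surface and mesothelial markers moved in both directions. Of 14 tested genes of 18 listed, 2 were called higher and none lower at 14.5 against 12.5 dpc, beside 1.08% of all probe sets called higher. The median log2 change was 0.23, against 0.01 over all tested genes. Aldh1a1, a retinaldehyde dehydrogenase, had 2033.9 and 1899.3 at 14.5 dpc and 489.2 and 581.5 at 12.5 dpc (3.61-fold; adjusted p = 0.00011). Lgr5, an R-spondin receptor, had 122.8 and 89.8 at 14.5 dpc and 22.4 and 17.9 at 12.5 dpc (3.36-fold; adjusted p = 0.0013). Both calls held without any 1 of the samples.

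At 18.5 against 11.5 dpc 4 of these 14 were called higher and 3 lower, beside 7.59% of all probe sets called higher and 14.5% in either direction. Lgr5 was 7.63-fold and Aldh1a1 4.66-fold higher (adjusted p = 6.4e-06 and 5.3e-06). Lhx9, a LIM homeobox factor of the early gonad, fell to 182.2 and 142.5 at 18.5 dpc, against 732.1 and 393.1 at 11.5 dpc (adjusted p = 0.00099). Aldh1a2, a retinoic acid synthesising enzyme of the coelomic lining, fell to 227.5 and 194.7, against 451.8 and 454.6 (adjusted p = 0.012, and 0.088 without replicate 2 of 18.5 dpc).

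The remaining uroplakins gave 4 tested genes, none called by limma at 14.5 against 12.5 dpc, beside 1.66% of all probe sets. At that step 1 of the 4 had an unadjusted p under 0.05, beside 3702 of all 24825 tested probe sets. At 18.5 against 11.5 dpc 1 of the 4 was called, in the higher direction, beside 7.59% of all probe sets. This was Upk1b, a tetraspanin uroplakin that is also in the surface list, with 1060.1 and 1249.7 at 18.5 dpc and 770.7 and 403.4 at 11.5 dpc (2.03-fold; adjusted p = 0.04). That call was lost without replicate 2 of 11.5 dpc (0.25), or replicate 1 or 2 of 18.5 dpc (0.12 and 0.2).

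Of 22 tested genes of epithelial junctions and their regulators, of 30 listed, limma called none at 14.5 against 12.5 dpc, beside 1.66% of all probe sets. Of the 22, 1 had an unadjusted p under 0.05, beside 3702 of all 24825 probe sets, and the median log2 change was -0.02. Between 18.5 and 11.5 dpc 3 were called higher and 2 lower at the later age, beside 7.59% of all probe sets called higher and 14.5% in either direction. The 3 include Esrp1, an epithelial splicing regulator, which had 297.0 and 349.8 at 18.5 dpc and 26.1 and 50.4 at 11.5 dpc. Outside 18.5 dpc Esrp1 reached a signal of 50 only in that 50.4, so it entered the test through 18.5 dpc. A difference from that age was built into its selection, and no test of it is given. Grhl2, a grainyhead-like factor of epithelia, rose 2.91-fold (adjusted p = 0.0046, and 0.07 without replicate 1 of 18.5 dpc), and Cldn7, a tight junction claudin, rose 2.55-fold (0.0015). Desmoplakin (Dsp), which ties keratin filaments to desmosomes, moved the other way, with 84.0 and 101.1 at 18.5 dpc and 299.3 and 224.9 at 11.5 dpc (adjusted p = 0.0019).

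Among 5 other tested galectin genes, limma called none at 12.5 against 11.5 dpc, the step at which Lgals7 was called and at which 0.226% of all probe sets were. Of the 5, 1 had an unadjusted p under 0.05 there, beside 3090 of all 24825 probe sets. At 18.5 against 11.5 dpc 3 of the 5 were called higher and 1 lower, beside 7.59% of all probe sets called higher and 14.5% in either direction. Lgals2 was 3.02-fold, Lgals9 2.52-fold and Lgals1 1.89-fold higher (adjusted p = 0.0029, 0.0037 and 0.0045). Lgals3, known from macrophages and many epithelia, had 31.2 and 60.0 at 18.5 dpc and 165.6 and 150.0 at 11.5 dpc (adjusted p = 0.03), and was not called without replicate 1 or 2 of 11.5 dpc (0.12 and 0.078) or replicate 1 of 18.5 dpc (0.18).

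**Figure D4:**
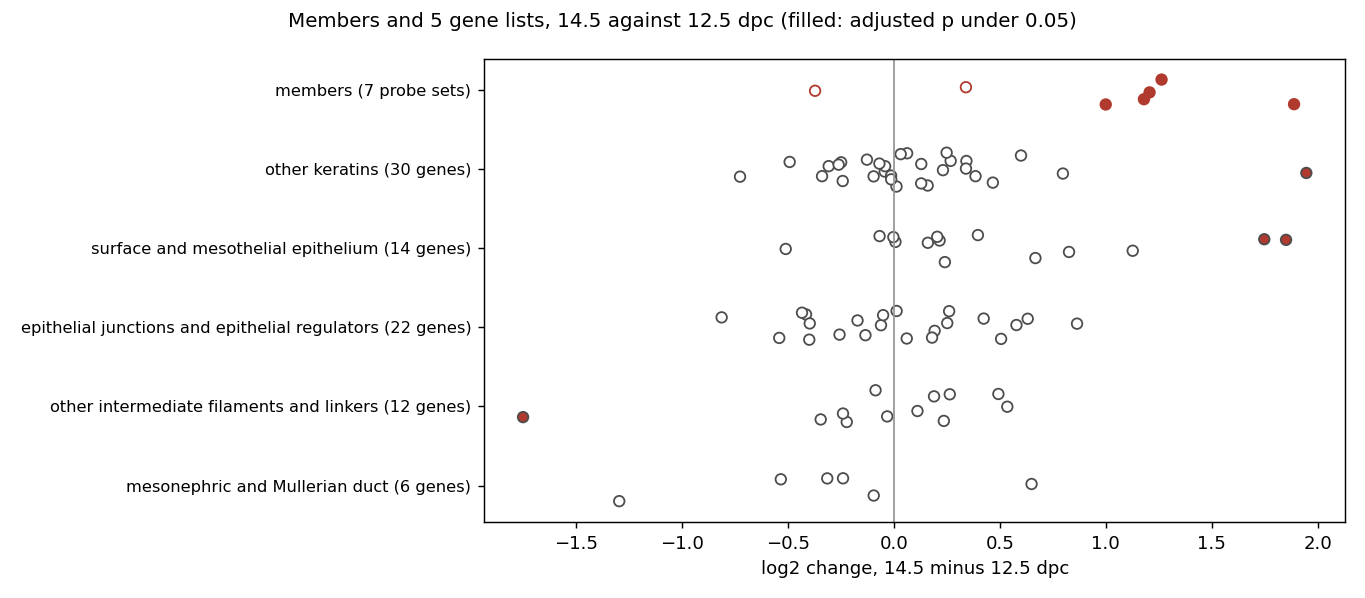
Log2 change at 14.5 minus 12.5 dpc for the 7 tested member probe sets and for each tested gene of 5 lists, 1 row a list, with points spread vertically only to show them and filled where the adjusted p was under 0.05. Member points are filled from 1.00 to 1.89, while 1 of 30 other keratins, 2 of 14 surface and mesothelial genes, none of 22 junction genes, 1 of 12 filament genes and none of 6 duct genes are filled. Of all tested probe sets 1.66% were called in either direction at this step.

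Epithelial keratins are also made by the mesonephric and Mullerian ducts that lie beside the fetal ovary, so duct genes were read in the same samples. Of 12 listed duct genes 6 were tested, and limma called none of them in any comparison. At 14.5 against 12.5 dpc 1 of the 6 had an unadjusted limma p under 0.05, beside 3702 of all 24825 tested probe sets. At 18.5 against 11.5 dpc 2 of the 6 did, beside 7164 of all. Pax2 and Pax8, the transcription factors that define this lineage, had signals of 5.5 to 37.6 and 9.1 to 25.2 over all ages, and Ret and Cdh16 had 1.5 to 3.5 and 7.2 to 22.5. The summed signal of the 2 tested duct genes on array A was 121.1 to 130.6 at 14.5 dpc and 141.0 to 155.6 at 12.5 dpc. At 16.5 dpc it was 189.6 to 193.6, above every other age, and it was 130.4 to 144.2 at 18.5 dpc and 126.5 to 159.7 at 11.5 dpc. The median log2 change of the 6 tested duct genes was 0.69 at 16.5 against 14.5 dpc, against -0.01 over all tested genes. At 18.5 against 14.5 dpc 3 of them had an unadjusted limma p under 0.05, beside 5074 of all 24825 tested probe sets. The part of the ducts in the member values at 16.5 and 18.5 dpc was not tested.

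Markers of the other ovarian cell types moved over the same ages. At 14.5 against 12.5 dpc 1 of 10 tested pregranulosa genes was called higher and 1 lower, 3 of 9 germ cell genes higher and 1 lower, 2 of 10 stromal genes higher, 1 of 9 endothelial genes lower, and 1 of 8 blood genes higher and 1 lower. At 18.5 against 11.5 dpc the calls were 6 higher of 10 for pregranulosa cells, 7 higher and 1 lower of 9 for germ cells, 5 higher and 1 lower of 10 for stroma, 4 lower of 9 for endothelium, and 3 higher and 3 lower of 8 for blood. Of all tested probe sets 1.08% were called higher and 1.66% in either direction at 14.5 against 12.5 dpc. The shares at 18.5 against 11.5 dpc were 7.59% and 14.5%.

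The summed array A signal of 4 pregranulosa genes was 2053.3 to 2169.4 at 14.5 dpc and 1783.4 to 2154.4 at 12.5 dpc. For 6 germ cell genes the sum ran from 1508.9 to 2539.0 at 14.5 dpc and 1620.2 to 2518.7 at 12.5 dpc. For 8 stromal genes it spanned 3280.9 to 3431.9 at 14.5 dpc and 2287.7 to 2970.3 at 12.5 dpc, and for 6 endothelial genes 334.2 to 335.6 at 14.5 dpc and 520.7 to 617.6 at 12.5 dpc. Stromal sums were thus higher at 14.5 dpc and endothelial sums lower, without overlap, and the pregranulosa and germ cell sums overlapped. A sum follows its brightest genes, such as Kitl (1163.6 and 1129.2 at 12.5 dpc), and leaves out genes of arrays B and C. Under the germ cell sum, Sycp1 rose from 7.5 and 13.0 to 404.1 and 239.1, and Pou5f1 fell from 521.1 and 313.1 to 121.5 and 102.2. The sum of 8 surface and mesothelial genes was 3473.1 to 3631.4 at 14.5 dpc and 1951.3 to 2111.8 at 12.5 dpc. The part of these cell types in the keratin and Upk3b values was not tested.

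The ratio of the 3' to the 5' Gapdh control probe set, averaged over a sample's 3 arrays, also moved with age. The ratio stood at 0.845 and 0.829 at 11.5 dpc, 0.830 and 0.838 at 12.5 dpc, 0.885 and 0.951 at 14.5 dpc, 0.917 and 1.09 at 16.5 dpc, then 1.08 and 1.05 at 18.5 dpc. All samples from 14.5 dpc on lay above all earlier ones, which is the same split as for Krt8, Krt18, Krt19 and Upk3b, and its part in their values was not tested.

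The member genes that rose at 14.5 dpc also varied together over the 10 samples of array A, which share their sample, scaling and age order. Pearson's r of the log2 values was 0.93 for Krt8 with Krt19, 0.94 for Krt18 with Krt19, 0.93 for Krt18 with Upk3b, 0.91 for Krt7 with Upk3b and 0.75 for Krt7 with Krt19. Lgals7 correlated with the others at 0.41 to 0.62. These values describe the course over age and do not tell 1 cell type from another.

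Other genes of array A had a course closer to each member than that of any other member. Among 4933 probe sets of named genes whose age mean reached 100 or more at 1 age, the 3 most like Krt19 were Tktl1, Spa17 and the meiotic gene Sycp1 (r = 0.99 each). Those most like Krt8 were Dnajc15, Fmr1nb and Rnf138 (0.99, 0.98 and 0.97), and those most like Krt18 were Atp5e, Ccnb1ip1 and Ubxn4 (0.98, 0.98 and 0.97). Upk3b was closest to Phf7, Anxa1 and Ddit4 (0.97, 0.97 and 0.97), Krt7 to Gadd45b, Atp5e and Coa6 (0.95, 0.93 and 0.93), and Lgals7 to Thrap3, B4galt2 and Lep (0.94, 0.92 and 0.91). No other member gene was among the 3 closest of any of the 6.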

How the data were processed

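The deposited values are signal intensities, 1 for each probe set on each array, scaled by the authors to an array mean of 125, per the labels' descriptions. The signal software is not named in the sources used here. The 7 genes and all gene lists were chosen with earlier results of these data known. Probe sets were named through the platform annotation, and control probe sets (198) were left out. Tests ran on log2(signal + 16) of the deposited signals, for probe sets with a signal of 50 on at least 2 of 10 arrays, in limma 3.58.1 (R 4.3.3) with lmFit and eBayes (intensity trend), 1 fit per array type over the 5 ages, with Benjamini-Hochberg adjustment over all types together and calls at adjusted p under 0.05. A listed gene was read from the tested probe set whose mean log2 signal was highest. All member probe sets are named, and of each list up to 4 called genes with the largest log2 change whose samples do not overlap. Among these list genes, the probe sets of Cldn7 and Aldh1a2 end in _i_at, like the second Krt7 set, and that of Ina in _r_at. The fit was tested on simulated data with changes put in at 14.5 against 12.5 dpc. It called 8 of 97 true log2 changes of 1, 58 of 95 of 2, and 1 unchanged probe set. A gene that was not called may therefore have changed. Alternatives were the pseudocount, the filter, quantile normalization, no intensity trend, a replicate block and leaving out each sample. Replicate numbers did not mark shared deviations: same-numbered samples of 2 ages correlated at -0.16 to 0.22, and 1 of 30 pairs exceeded 0.1. Proteins and the Krt19 and Msln promoters were not used here.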

Additional observations from a re-analysis of the deposited data

How the results depend on the processing

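Of 42 named changes under 16 alternatives, 604 values kept their direction and their call, 68 kept the direction and lost the call, and none reversed. That tally includes changes of the dimmer Krt19 set and of Esrp1, which entered the test through 18.5 dpc. It also includes the late against early contrast, added after the values were seen. Its values for these give no test of them. Member counts here are over all 7 tested member probe sets. Where 18.5 dpc is involved they include the dimmer Krt19 set, which the counts above left out. The member count at 12.5 against 11.5 dpc, 1 as reported, was 0 with a pseudocount of 1, with no filter, with quantile normalization, with no intensity trend in eBayes and with a replicate block, where Lgals7 had adjusted p = 0.06. The count at 16.5 against 14.5 dpc, 1 as reported, was 0 with a pseudocount of 1, with no filter and with no intensity trend. The count at 18.5 against 14.5 dpc was 2 with the dimmer Krt19 set, against 1 of 6 reported without it. With a pseudocount of 1 the dimmer set lost its call and the main Krt19 set kept it. The count at 14.5 against 12.5 dpc, 5 as reported, was 2 with no intensity trend. There Krt7, Krt8 and Upk3b had limma adjusted p of 0.086, 0.051 and 0.053. The cause of these changes was not tested. With samples left out in turn the counts ran from 0 to 1 at 12.5 against 11.5 dpc, 1 to 5 at 14.5 against 12.5 dpc, 0 to 2 at 16.5 against 14.5 dpc, 0 to 0 at 18.5 against 16.5 dpc, 1 to 2 at 18.5 against 14.5 dpc, 6 to 6 at 18.5 against 11.5 dpc, 6 to 7 in the F test and 6 to 7 for the late against the early ages. The replicate block, for numbers that do not pair the samples, also left Krt7 at 14.5 against 12.5 dpc with adjusted p = 0.063. With 2 samples per age and single probe sets for 4 of 7 genes, signals near the bottom of the scale set no level.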
